A study of Mus musculus with 6 samples.

Results

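The protein-coding genes for histones were examined in ATAC-seq data of freshly isolated muscle stem cells (MuSCs). In ATAC-seq the Tn5 transposase inserts adapters into accessible DNA, so that reads pile up over open promoters and enhancers. The members are the peaks of the deposited table whose annotated gene is protein-coding and carries a histone symbol (prefixes such as Hist1h, H1f, H2a, H2b, H3c or H4c). They numbered 65 peaks of 49 genes, out of 75412 peaks in all. The choice was made by gene name and not by their values, with earlier results of these data known. Of these, 52 peaks belonged to 40 clustered replication-dependent genes and 13 peaks to 9 genes for single histone variants. MuSCs of control and Taf4a sKO mice on the C57BL/6 background were compared, with 3 libraries of each genotype. Taf4a sKO mice carried the tamoxifen-inducible Pax7CreERT driver, which is active in MuSCs, together with Taf4a flox/flox alleles and received tamoxifen, and exons 11 and 12 of Taf4a are removed on recombination. According to the study's reporting summary, control mice carried the same floxed alleles with or without the driver, and the Pax7 zsGreen reporter was present in some mice of either genotype. Which of these a given library had is not given in the sources used here. Cells were sorted from adult mice as SCA1-, CD45-, CD31- cells that were integrin alpha7+ or carried the reporter. The study asked how loss of TAF4A, a subunit of the general transcription factor TFIID that also binds the CCAAT-box factor NF-Y, changes chromatin in these cells.

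Histones package DNA into nucleosomes, each an octamer of the core histones H2A, H2B, H3 and H4, with the linker histone H1 bound where DNA enters and leaves. Most core histone protein is made in S phase from replication-dependent genes that lie in clusters, lack introns and give mRNAs that end in a stem-loop instead of a poly(A) tail. Variant histones such as H2A.Z, H2A.X and H2A.J come from single genes that are also expressed outside S phase and give polyadenylated mRNAs. Quiescent MuSCs have left the cell cycle and do not replicate their DNA.

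The table uses 26 symbols for the 49 genes, because several near-identical genes share 1 alias. The symbol H4c1 alone stands for 12 H4 genes with 17 peaks. Genes are therefore named here by the Ensembl identifier of each peak and its GENCODE vM21 name (Hist1h4a and so on), and all 65 identifiers were found there. Coordinates are those of mm10. All 8 MuSC markers examined (Pax7, Myf5, Itga7, Cdh15, Calcr, Chodl, Vcam1 and Sdc4) had peaks, and their values summed to 27815, 23080 and 28436 in control MuSCs and to 29968, 27519 and 28219 in Taf4a sKO MuSCs, with Pax7 and Cdh15 the most accessible. Among 4 haematopoietic markers only Csf1r had a peak, with 192, 249 and 297 in control and 461, 395 and 507 in Taf4a sKO, while Ptprc, Cd3e and Adgre1 had none. Endothelial markers (4 of 4 with a peak, Tek the highest) summed to 1895, 1668 and 2191 against 2465, 2474 and 2329. Of these only Tek was separate (1590, 1389 and 1851 against 2103, 2140 and 2031), and Pecam1, Cdh5 and Kdr overlapped. The fibro-adipogenic markers Pdgfra and Dcn summed to 2315, 2136 and 2419 against 2840, 2683 and 2667, and Ly6a, which encodes SCA1, had no peak. Sums over muscle fibre markers (4 of 4 with a peak, Mylpf the highest) overlapped, with 6053, 5506 and 6928 against 6876, 6035 and 5831, although Acta1 was lower in every Taf4a sKO library (1171, 1194 and 1419 against 1035, 901 and 854). The part of these other cell types in the histone values was not tested. At the targeted gene, the peak over the floxed exons (chr2:179922849-179923263) had values of 65, 78 and 137 in control and 44, 22 and 25 in Taf4a sKO libraries, a log2 change of -1.58 (standard error 0.30, adjusted p = 3.4e-04). The peak at the start of the gene was not called (log2 change -0.07, adjusted p = 0.59), and one 3331 bp from the start was higher, with 488, 437 and 653 against 831, 695 and 759 (log2 change 0.55, adjusted p = 0.0030).

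Promoter sequence differs between the histone classes, and 4 promoters show the contrast. Each runs 5′ to 3′ from 250 bases before to 50 bases after the annotated start (RefSeq, GRCm38.p6). Capitals mark the letters CCAAT (the box bound by NF-Y), TATAAA (the core TATA box), ATTTGCAT (the octamer bound by OCT1) and GGGCGG (a GC box) on either strand, so that ATTGG is a CCAAT box of the other strand. None of these motifs contains another. Hist2h2ac, with the highest value among clustered H2A genes, holds an octamer, CCAAT boxes and a TATA box. Hist1h4a is the clustered H4 gene with the smallest p for a higher value, and H1fx, which encodes the linker histone H1.10, is the variant gene with the smallest p for a lower one. H2afz encodes H2A.Z.1 and did not pass the test at its start.
Hist2h2ac (chr3:96220831-96221130, minus strand): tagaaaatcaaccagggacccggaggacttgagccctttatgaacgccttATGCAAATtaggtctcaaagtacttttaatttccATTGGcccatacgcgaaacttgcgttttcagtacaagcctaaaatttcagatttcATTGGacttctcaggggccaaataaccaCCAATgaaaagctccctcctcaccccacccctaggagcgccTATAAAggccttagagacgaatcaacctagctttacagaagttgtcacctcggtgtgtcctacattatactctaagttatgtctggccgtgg
Hist1h4a (chr13:23761200-23761499, minus strand): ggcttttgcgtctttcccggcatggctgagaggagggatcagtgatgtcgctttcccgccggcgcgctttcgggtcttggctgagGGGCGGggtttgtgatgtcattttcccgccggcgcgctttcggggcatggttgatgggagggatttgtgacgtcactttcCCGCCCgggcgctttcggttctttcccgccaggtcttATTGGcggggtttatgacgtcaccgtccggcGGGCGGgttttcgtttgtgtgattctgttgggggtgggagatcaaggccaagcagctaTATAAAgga
H1fx (chr6:87981433-87981732, minus strand): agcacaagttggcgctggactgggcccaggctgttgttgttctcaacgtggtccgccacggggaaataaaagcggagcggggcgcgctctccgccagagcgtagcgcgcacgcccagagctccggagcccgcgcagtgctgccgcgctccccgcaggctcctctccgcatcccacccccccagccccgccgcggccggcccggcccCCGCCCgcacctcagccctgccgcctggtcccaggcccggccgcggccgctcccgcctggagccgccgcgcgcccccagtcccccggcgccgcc
H2afz (chr3:137864237-137864536, plus strand): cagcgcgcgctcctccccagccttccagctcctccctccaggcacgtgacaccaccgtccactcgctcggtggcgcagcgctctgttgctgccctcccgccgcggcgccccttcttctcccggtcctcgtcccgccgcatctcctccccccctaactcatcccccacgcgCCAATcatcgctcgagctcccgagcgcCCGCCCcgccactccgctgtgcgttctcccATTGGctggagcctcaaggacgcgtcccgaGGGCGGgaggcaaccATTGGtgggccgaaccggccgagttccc

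The Hist2h2ac window held 3 CCAAT boxes at 166, 111 and 83 bases before the start, an octamer at 200 and a TATAAA at 42 bases before it. Hist1h4a had 1 CCAAT box at 48 bases before the start and 3 GC boxes, and its only TATAAA lay 41 bases after the annotated start. No CCAAT or TATAAA was present in the H1fx window, while H2afz had 3 CCAAT boxes and no TATAAA. Over all 32851 promoters of the reference table, CCAAT occurred in 37.4%, TATAAA in 13.6%, the octamer in 1.74% and GGGCGG in 35.7%. Among 59 matched clustered genes outside the germline list these shares were 84.7%, 55.9%, 18.6% and 37.3%. The 11 matched variant genes outside that list had CCAAT in 72.7%, TATAAA in 9.09%, the octamer in 9.09% and GGGCGG in 63.6%. All clustered H1, H2A, H2B and H3 promoters matched (5, 17, 15 and 10) held a CCAAT box, against 3 of 12 H4 promoters. The octamer was found in 6 of 17 H2A and 5 of 15 H2B promoters and in no clustered H3 or H4 promoter. A promoter was matched for 97 of 103 annotated histone genes. The unmatched genes were H2afx, Hist1h2bc, Hist1h3a, Hist1h3f, Hist2h2be and Hist2h4. These matches describe letters in a window and no measured binding. Peaks over the start of clustered genes with a CCAAT box numbered 28, of which 3 were called higher and 1 lower (median log2 change 0.01), and those without numbered 6, of which 1 was called higher (median 0.01), where 15.7% of all peaks within 1000 bp of a protein-coding start were called in either direction.

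Few histone gene peaks passed the test in Taf4a sKO MuSCs, and the direction of the calls depended on how libraries were scaled. Of the 65 peaks, 8 were called higher and 4 lower at an adjusted p under 0.05 in limma, while 28.0% of all 75384 tested peaks were called higher and 13.9% lower. With median-of-ratios scaling the same 65 peaks gave 5 higher and 16 lower, and with equal totals or quantile normalization 3 higher and 19 lower. Of all tested peaks these scalings called 25.3%, 23.4% and 24.8% higher and 22.5%, 25.8% and 25.1% lower. Of those within 1000 bp of a protein-coding start they called 9.93%, 8.07% and 8.97% higher and 23.2%, 33.5% and 35.1% lower. With the authors' scaling, 1209 of all 12049 tested peaks within 1000 bp of the start of a protein-coding gene (promoter peaks) were called higher and 683 lower, together 15.7%. Of the 43 histone peaks within that distance, 4 were called higher and 2 lower, a share near that of promoter peaks in general. The median log2 change was 0.02 over the histone peaks, 0.11 over all tested peaks and 0.06 over all promoter peaks, and the middle of the histone values ran from -0.11 to 0.18 (quartiles). By the study's thresholds, which need a mean over 10 and group means that differ by more than 1 on the log2 scale and involve no test, no histone peak was gained and 1 was lost, against 7.03% and 5.36% of all tested peaks. All 3 Taf4a sKO values lay above all 3 control values at 10 histone peaks and below them at 8, where 32.3% and 18.0% of all tested peaks were separated in that way. The paper describes the libraries as biological replicates, and whether each came from 1 animal is not given in the sources used here. Their number of 3 per genotype limits the precision of each value. The plot of log2 changes shows every member.

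**Figure D1:**
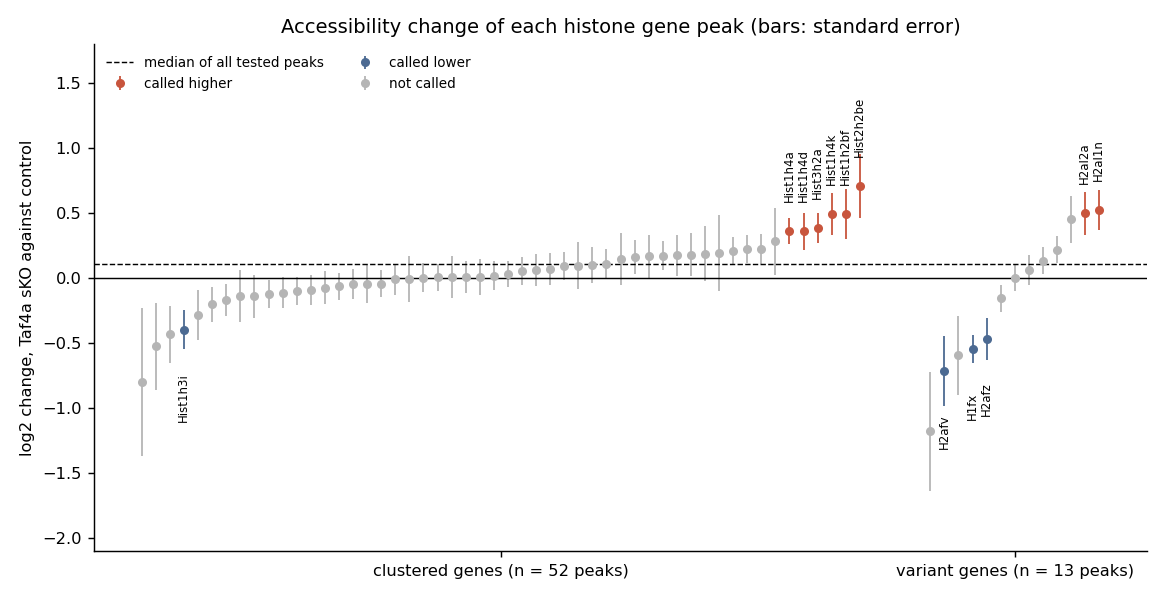
Log2 change between Taf4a sKO and control MuSCs (y axis) of each of the 52 clustered and 13 variant histone peaks, ordered by size within each class. Points are limma estimates with standard errors, coloured by call at an adjusted p under 0.05, and the dashed line is the median of all tested peaks (0.11). The 8 peaks called higher and the 4 called lower are labelled by gene, and most peaks lie near 0.

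The clustered replication-dependent genes gave 6 peaks called higher and 1 called lower of 52. Together this was 13.46%, below the 41.9% of all tested peaks called in either direction. Within 1000 bp of a start 5 of 37 were called (13.51%), near the 15.7% of promoter peaks. H4 genes, which encode the most conserved core histone, contributed 3 of the 6 called higher, out of 17 H4 peaks. This was 17.65%, below the 28.0% of all tested peaks called higher. All 3 were among the 12 H4 peaks within 1000 bp of a start (25%), a share that was not tested against promoter peaks. Hist1h4a (table symbol H4c1), in the large cluster on chromosome 13, shares its peak (chr13:23760800-23762548) with the start of the H3 gene Hist1h3a. Its values were 2395, 2088 and 2521 in control and 3034, 2894 and 3030 in Taf4a sKO libraries. Every Taf4a sKO library was above every control library, and the fitted change, taken back from the log2 scale as for the other percentages of single peaks, was 28.3% (log2 change 0.36, standard error 0.10, adjusted p = 0.0062). It was the clustered gene with the smallest p and among the 4 clustered peaks with the highest values. Hist1h4k (chr13:21749837-21750865) is a weakly accessible H4 gene, with values of 176, 154 and 163 in control and 190, 236 and 274 in Taf4a sKO. The groups were separate (log2 change 0.49, standard error 0.16, adjusted p = 0.017), with the largest spread among the Taf4a sKO libraries. Hist1h4d (chr13:23581375-23581886) had 385, 284 and 383 in control and 454, 421 and 464 in Taf4a sKO, again without overlap (log2 change 0.36, adjusted p = 0.044). The calls of Hist1h4k and Hist1h4d were lost under each of the other scalings tried, with adjusted p up to 0.091 and 0.31, and also without control replicate 2 or Taf4a sKO replicate 3 (0.082 and 0.15 for Hist1h4k, 0.24 and 0.14 for Hist1h4d), that of Hist1h4d further without Taf4a sKO replicate 1 or 2 (0.10 and 0.056) and with plain moderation (0.095). That of Hist1h4a was kept under each scaling, with a smaller log2 change of 0.25 (median-of-ratios), 0.21 (equal totals) or 0.24 (quantile), and missed the threshold only with plain moderation, limma without the trend and the robust step (adjusted p = 0.051). The other H4 genes with a peak near the start, such as Hist1h4c, Hist1h4f, Hist1h4i, Hist2h4 and Hist4h4, were not called, and the 12 H4 peaks within 1000 bp of a start had a median log2 change of 0.04.

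Among the 8 peaks of clustered H3 genes, all within 1000 bp of a start, 1 was called (12.5%). Of promoter peaks 15.7% were called in either direction. Hist1h3i (chr13:21783225-21783501) had values of 264, 232 and 305 in control and 212, 195 and 197 in Taf4a sKO libraries. All Taf4a sKO values were below the control values, and the peak fell by 24.1% (log2 change -0.40, standard error 0.15, adjusted p = 0.036). It was the only clustered member called lower, and without control replicate 1, control replicate 3, Taf4a sKO replicate 2 or Taf4a sKO replicate 3 the call was lost (adjusted p up to 0.11), as it was with plain moderation (0.051). Hist1h3f (chr13:23543052-23544812), whose peak also covers the start of the H2B gene Hist1h2bh, had the highest value of the H3 members before division by peak length, with 1912, 1730 and 2063 against 1980, 1990 and 1849, which overlapped (adjusted p = 0.83). Hist2h3c1 had the most negative estimate of any clustered member, with 207, 165 and 138 against 107, 44 and 185, but its libraries overlapped widely (log2 change -0.80, standard error 0.57, adjusted p = 0.33).

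H2A and H2B genes mostly lie head to head, so that 1 peak covers both starts. Of 9 peaks annotated to clustered H2A genes within 1000 bp of a start none was called, also at an unadjusted p under 0.05. Their log2 changes ran from -0.17 to 0.17. Hist2h2ac (chr3:96219264-96221835) had the highest control mean of the clustered class, with 2333, 2261 and 2809 in control against 2453, 2435 and 2259 in Taf4a sKO. Its peak covers the starts of the H2A genes Hist2h2ac and Hist2h2ab, of the H2B gene Hist2h2be and of the unrelated gene Bola1, and the groups overlapped (log2 change -0.05, adjusted p = 0.76). Of 8 peaks annotated to H2B genes within 1000 bp of a start, 1 was called (12.5%). Over both families, this compares with 15.7% of promoter peaks called in either direction. The called peak, that of Hist1h2bf (chr13:23573917-23574545), also covers the start of the H2A gene Hist1h2ad. It had 119, 118 and 145 against 162, 141 and 249 (log2 change 0.49, adjusted p = 0.045). The genotypes overlapped, and 1 Taf4a sKO library was far above the others. The peaks of Hist1h2bc, which also covers the start of Hist1h2ac, of Hist1h2bb and of Hist2h2bb were not called (adjusted p between 0.48 and 0.92). The other calls among H2A and H2B genes, both higher, were distal. At 5562 bp from the start of the H2A gene Hist3h2a, a peak without any annotated start (chr11:58959891-58960602) had 711, 603 and 655 in control and 840, 844 and 883 in Taf4a sKO libraries (log2 change 0.38, standard error 0.11, adjusted p = 0.0085, but 0.057 without Taf4a sKO replicate 3 and 0.13 with quantile normalization), whereas the peak at the start of the same gene had 1420, 1287 and 1466 against 1354, 1491 and 1341 (adjusted p = 0.98). A small peak 5780 bp from Hist2h2be rose from 36, 39 and 63 to 79, 85 and 59, with overlapping genotypes (log2 change 0.71, adjusted p = 0.024).

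**Figure D2:**
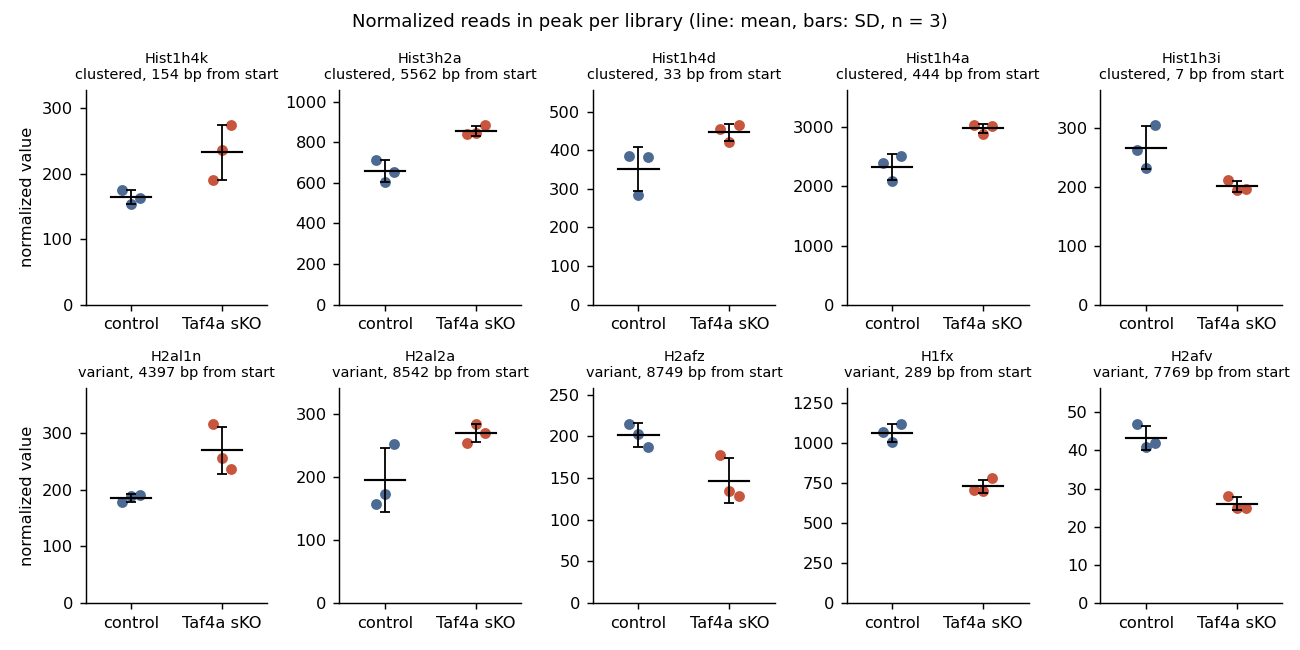
Normalized value (y axis, linear from 0) in each of the 3 control and 3 Taf4a sKO libraries at the 5 clustered peaks (upper row) and the 5 variant peaks (lower row) that were called and whose genotypes did not overlap. Points are libraries, lines are means and bars are SD with n = 3, and H1fx is the only one of the lower variant peaks that lies at a gene start (1067, 1008 and 1120 in control, 708, 702 and 778 in Taf4a sKO).

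The 13 peaks of single variant genes gave 2 calls higher and 3 lower. Together this was 38.5%, near the 41.9% of all tested peaks called in either direction. Within 1000 bp of a start 1 of 6 was called (16.7%), against 15.7% of promoter peaks. The linker histone gene H1fx (table symbol H1f10, chr6:87980424-87982271, peak over its start and those of Gm47286 and Gm5577) had the smallest p of all members. Its values were 1067, 1008 and 1120 in control and 708, 702 and 778 in Taf4a sKO libraries. Both groups were tight and far apart, and the peak fell by 31.5% (log2 change -0.55, standard error 0.11, adjusted p = 3.3e-04). The call was kept under all 14 alternative settings, with log2 changes between -0.75 and -0.51. No other member at a variant start was called. H2afz, which encodes the H2A.Z.1 variant found at promoters, had 3648, 3276 and 4071 against 3888, 3589 and 3482 at its start (chr3:137863820-137864881), with equal means within the error (log2 change -0.00063, standard error 0.10, adjusted p = 0.997). Another H2afz peak 942 bp from the start (chr3:137865051-137865806) had 872, 689 and 831 against 842, 858 and 782. It was not called either (log2 change 0.06, adjusted p = 0.72). H2afv (chr11:6443826-6444858), the gene for H2A.Z.2, had 3727, 3318 and 4297 against 4521, 3890 and 3991 (log2 change 0.13, adjusted p = 0.34, but 0.026 without control replicate 3). At both H2A.Z genes it was a distal peak that was called, in each case lower. The peak 8749 bp from H2afz (chr3:137855161-137856314) went from 215, 203 and 187 to 178, 134 and 128 (log2 change -0.47, standard error 0.16, adjusted p = 0.025). The one 7769 bp from H2afv (chr11:6436595-6436752) went from 47, 41 and 42 to 28, 25 and 25 (log2 change -0.71, standard error 0.27, adjusted p = 0.037), where values are low. Both calls were lost without control replicate 1, control replicate 2, Taf4a sKO replicate 2 or Taf4a sKO replicate 3, and that of H2afv also without Taf4a sKO replicate 1 (adjusted p up to 0.13 for either).

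H2afx (chr9:44334282-44335740) encodes H2A.X, which is phosphorylated around DNA double-strand breaks. Its values of 2394, 2196 and 2700 against 2288, 2158 and 2084 overlapped (log2 change -0.15, standard error 0.10, adjusted p = 0.25). With median-of-ratios, equal-total or quantile scaling this peak passed the test as lower (log2 change down to -0.30), as did the start peaks of H2afz and of the clustered genes Hist2h2ac and Hist1h4h. H2afj (chr6:136807990-136809338), the gene for H2A.J, had 1445, 1353 and 1481 at its start against 1694, 1728 and 1556, separate groups that missed the threshold (log2 change 0.22, adjusted p = 0.091, but 0.015 without control replicate 3). A second H2afj peak 3287 bp from the start (chr6:136811429-136811633) was the single member past the threshold for lost peaks, with 118, 111 and 214 against 92, 82 and 31. All Taf4a sKO values were lower, but the spread was wide (log2 change -1.18, standard error 0.46, adjusted p = 0.082).

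The remaining variant members were annotated to X-linked or testis genes of the H2A family and lay outside the gene starts. H2al1n and H2al2a belong to the H2A.L group of sperm chromatin proteins. A peak 4397 bp from H2al1n (chrX:14206406-14207096) had 178, 188 and 191 in control and 316, 255 and 236 in Taf4a sKO libraries (log2 change 0.52, standard error 0.15, adjusted p = 0.0077, but 0.070 without Taf4a sKO replicate 1). One 8542 bp from H2al2a (chr2:18005173-18005827, table symbol H2ab1) had 158, 174 and 253 against 255, 285 and 271, where the highest control library came within 2 units of the lowest Taf4a sKO library (log2 change 0.50, adjusted p = 0.019). Without control replicate 1, control replicate 2 or Taf4a sKO replicate 2 that call was lost (0.10, 0.11 and 0.057), as it was with equal totals, quantile normalization or plain moderation (0.056, 0.061 and 0.062). These were the 2 variant peaks called higher. The H2al3 peak, 1191 bp from the start, had 454, 566 and 776 against 754, 684 and 988 and was not called (adjusted p = 0.066), but it was called higher without control replicate 3 (0.0022) or Taf4a sKO replicate 2 (0.030). Hypm (table symbol H2ap) had a weak peak 9445 bp away with 36, 36 and 28 against 19, 23 and 23 (log2 change -0.60, adjusted p = 0.12, but 0.015 with plain moderation). Of 27 histone genes on the germline list, which leaves out Hypm and H2bfm, none had its start inside a peak of these MuSCs. By GENCODE starts, 61 of 76 other annotated histone genes had theirs in a peak. With the RefSeq starts of matched genes as well, these counts were 0 and 65, the 4 more being Hist1h1d, H3f3b, H2afy and H2afy2. Around the starts of these 27 genes a median of 58.8% of 32-base words occurred elsewhere in the genome as well (over 10% at 21 genes), and the authors removed reads that align to several places, so missing peaks and reads that could not be placed cannot be told apart at those 21. The 6 genes at or under 10% were H1fnt, Hist1h1t, H2al3, H1foo, Hist1h2aa and Hils1. Outside the germline list, 47 of the 54 clustered starts that lay in a peak also had over 10%. The median of those 54, and not 10%, is the bound used for clustered genes below.

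In control MuSCs the members also differed in level. Values per kb of peak allow genes to be set side by side. The 12049 promoter peaks had a median of 1067 per kb (quartiles 536.6 and 1659). Clustered histone peaks within 1000 bp of a start had a median of 686 per kb and ran from 116 at Hist1h4n to 1408 at Hist4h4, and Hist1h4a had 1336. H2afv (3663 per kb) and H2afz (3454 per kb) were more accessible than 99.3% and 98.95% of promoter peaks. H2afx followed with 1667, then H2afj with 1058 and H1fx with 577. These are levels of the control libraries and not differences between genotypes. The plot of levels shows all of these peaks. The authors discarded multi-mapping reads, and their part in the levels of near-identical genes was not tested.

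**Figure D3:**
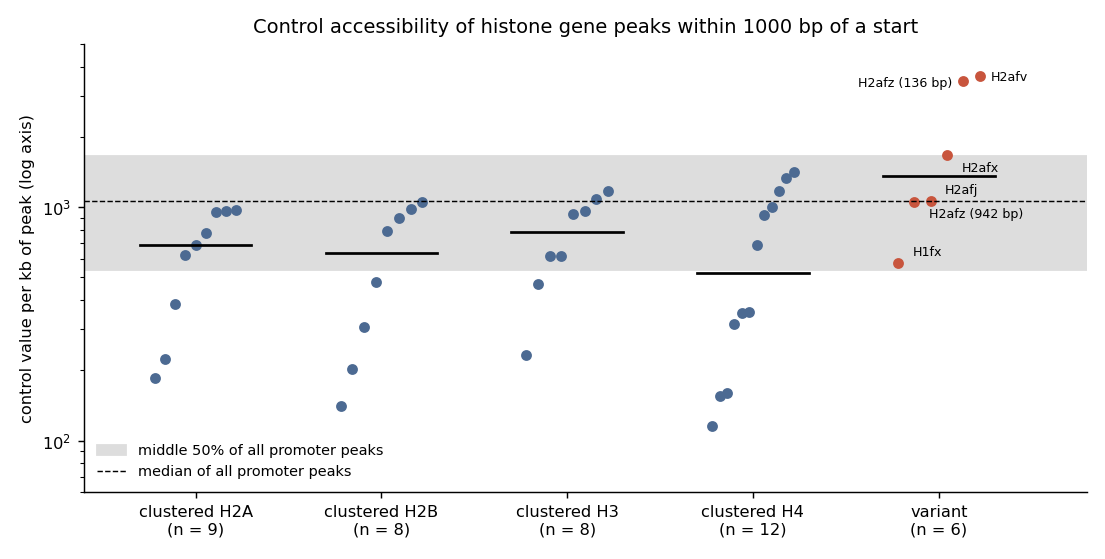
Mean control value per kb of peak (y axis, log scale) of histone peaks within 1000 bp of a start, for clustered H2A, H2B, H3 and H4 genes and for variant genes. Each point is a peak, black lines are group medians, and the grey band and dashed line give the quartiles and the median of all 12049 promoter peaks (1067 per kb). H2afv and H2afz lie above the band, and many clustered genes lie below it.

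Shared sequence was measured as the percentage of 32-base words in a peak that occur elsewhere in the reference genome. Clustered members had a median of 24.6% and a maximum of 90.8% (Hist2h3c2), with 36 of 52 peaks over 10%. Variant members had a median of 0. Among clustered genes outside the germline list, the 54 whose start lay in a peak had a median of 36.7% around the start, and the 10 without had one of 96.6%, among them Hist1h2ao, Hist1h2ap and Hist1h4m. At 6 of these 10 the share was above 36.7%, the median of starts in a peak, and there an absent peak cannot be told apart from reads that could not be placed. The other 4 were Hist1h1d (0%), whose start lies in a peak by RefSeq, Hist1h4b (22.3%), Hist1h3d (34.4%) and Hist1h2af (34.9%). The 16 clustered peaks with at most 10% repeated words had 2 calls higher and a median log2 change of 0.08, and the 36 others had 4 higher, 1 lower and a median of 0.01. In general 15.7% of promoter peaks and 41.9% of all tested peaks were called in either direction. At Hist1h4a 31.1% of words were repeated, at Hist1h4k 39.3%, at Hist1h3i 46.7% and at H1fx 0. A peak also need not be 1 gene. Of the members, 25 held no histone start, 27 held 1, 12 held 2 and 1 held 3. A total of 7 tRNA genes lay in 6 members, which were all uncalled, also at an unadjusted p under 0.05.

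Most clustered members lay on chromosome 13, in blocks of 327 kb (23 histone genes) and 403 kb (31 histone genes). Counting all histone genes by identity, the first block had 16 histone peaks, with 1 called higher (Hist1h4k), 1 lower (Hist1h3i) and a median log2 change of 0.15, and 11 other peaks with 1 called higher, which has no annotated gene, and a median of 0.05. The second block had 22 histone peaks, with 3 called higher (Hist1h2bf, Hist1h4d and Hist1h4a), 1 lower (Hist1h1e) and a median of 0.00, and 2 other peaks, of which 1 annotated to the iron regulator gene Hfe was called higher. In the second block the called peaks of Hist1h2bf and Hist1h4d were direct neighbours, and the peak of Hist1h4a had uncalled histone peaks on both sides. The smaller cluster on chromosome 3 (50 kb, 10 genes) had 8 peaks with 1 call. In the order given, 12.5%, 18.2% and 12.5% of the histone peaks were called. The general shares were 15.7% of promoter peaks and 41.9% of all tested peaks.

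**Figure D4:**
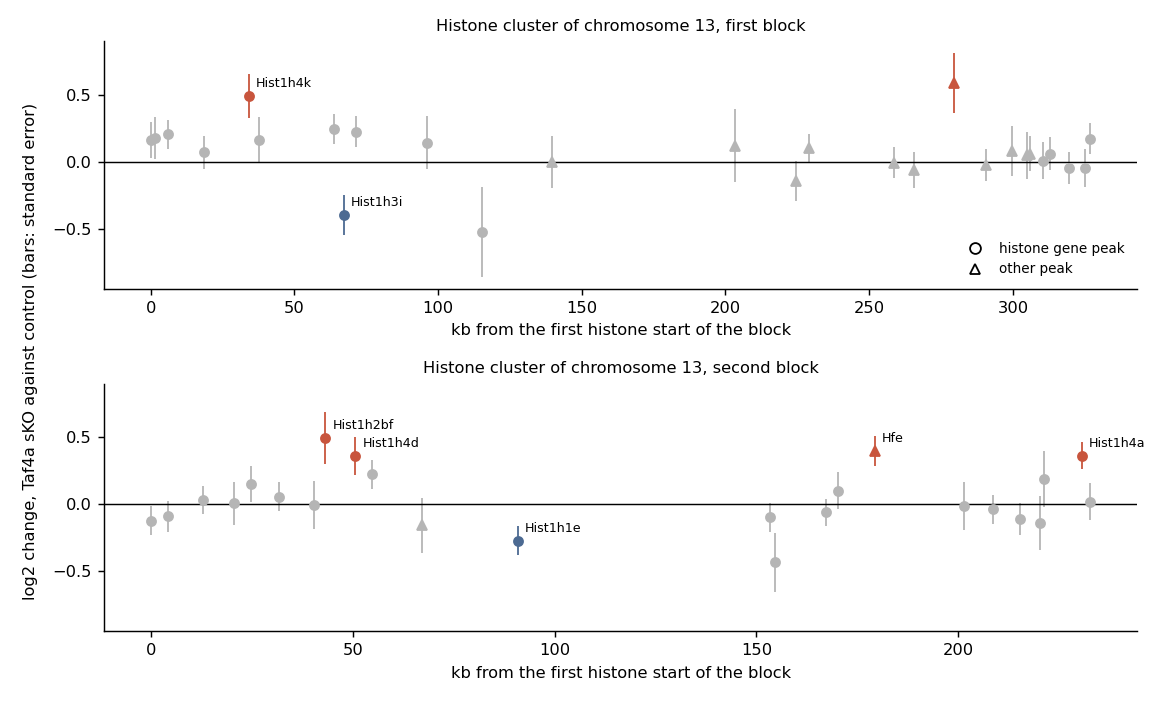
Log2 change between Taf4a sKO and control MuSCs (y axis, bars are standard errors) along both blocks of the histone cluster on chromosome 13 (x axis, kb from the first histone start of the block). Circles are histone gene peaks, triangles are other peaks, and red and blue mark those called higher and lower. In the second block Hist1h2bf and Hist1h4d, both called higher, lie next to each other.

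The authors' depth normalization left the libraries with unlike totals in peaks, and the direction of the histone values depended on it. Over all peaks, values summed to 37722015, 35226223 and 42803315 in control libraries and to 44311913, 41661725 and 41948821 in Taf4a sKO libraries. Clustered members summed to 36848, 33435 and 41353 against 38449, 38782 and 38330, which overlapped, with the Taf4a sKO mean 3.52% above the control mean. Variant members summed to 14359, 13159 and 16191 against 15583, 14413 and 14375, also overlapping (1.51% above). With each library's total over all peaks set to 1000000, clustered members made up 977, 949 and 966 in control and 868, 931 and 914 in Taf4a sKO libraries, and variant members 381, 374 and 378 against 352, 346 and 343. On that scale both classes were lower in every Taf4a sKO library. With median-of-ratios scaling the clustered class had 3 peaks called higher and 10 lower instead of 6 and 1, and the variant class 2 and 6 instead of 2 and 3. Equal totals gave 2 and 13 and quantile normalization also 2 and 13 in the clustered class, with 1 and 6 in the variant class under both. Promoters in general moved alike: 9.93% of all promoter peaks were called higher and 23.2% lower with median-of-ratios scaling. Equal totals gave 8.07% and 33.5% of promoter peaks, and quantile normalization 8.97% and 35.1%. Median-of-ratios scaling shifted the median of all tested peaks from 0.11 to -0.01 and that of the clustered members from 0.02 to -0.09. Under each of the 4 scalings the median of both histone classes lay below that of all peaks and of all promoter peaks, a difference that was not tested. The variant median under the authors' scaling was -0.00063. It was -0.31 without the 3 peaks annotated to genes of the germline list, which leaves the Hypm peak in. With the peak nearest each start it was 0.13, which lies above the median of all promoter peaks (0.06).

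**Figure D5:**
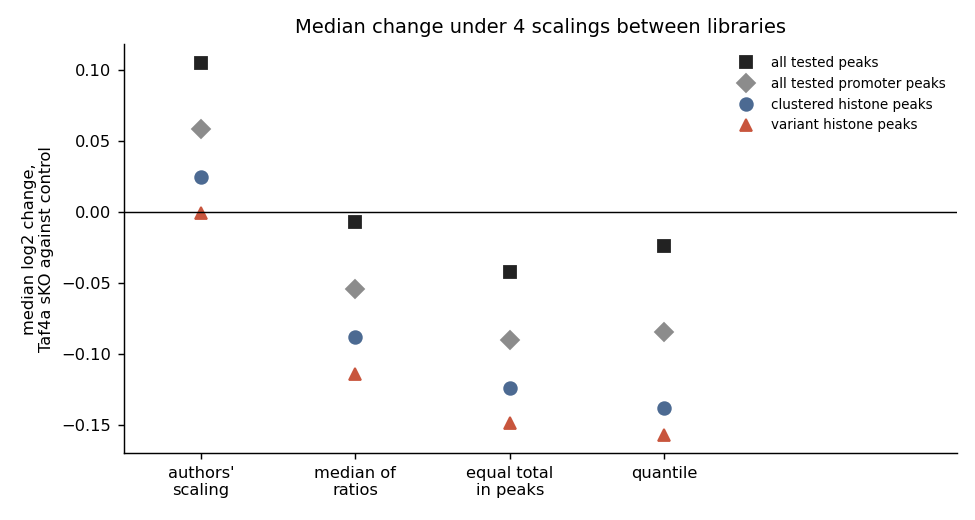
Median log2 change between Taf4a sKO and control (y axis) of all tested peaks, all promoter peaks, clustered histone peaks and variant histone peaks under 4 scalings between libraries (x axis). The clustered median moves from 0.02 to -0.09, -0.12 and -0.14, and the order of the 4 sets is the same under each scaling.

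Several histone genes fall outside the symbol rule because the table lists them under symbols such as H1-1 to H1-5, H1.8, H3-3a, Macroh2a1, Macroh2a2, Hils1 or Cenpa. They are given here after their symbols and values were seen. Their 17 peaks had 3 calls higher and 1 lower, against 41.9% of all tested peaks and 15.7% of promoter peaks called in either direction. Hist1h1e (H1-4), a replication-dependent linker histone gene, was lower with 1563, 1414 and 1810 against 1288, 1322 and 1330 (chr13:23620733-23623048, log2 change -0.27, standard error 0.11, adjusted p = 0.045), in a peak that also covers the start of the H2B gene Hist1h2be. The other replication-dependent H1 genes were not called, for instance Hist1h1c with 1834, 1672 and 2204 against 1826, 1875 and 1817 (adjusted p = 0.80) and Hist1h1b with 948, 867 and 1101 against 1117, 1129 and 1192, groups without overlap (adjusted p = 0.084). The peaks of H3f3a and H3f3b, both for the replacement histone H3.3, had 3368, 3154 and 3872 against 3755, 3423 and 3326 and 2927, 2647 and 3181 against 2877, 2735 and 2658, and neither was called (adjusted p = 0.90 and 0.57). Cenpa, for the centromeric H3, and the macroH2A genes H2afy and H2afy2 were not called either. Among called histone peaks, the largest changes were near germline linker genes. H1foo, an oocyte H1, had 2 gained peaks, at 806 bp from its start with 578, 619 and 876 against 1647, 1679 and 1476 (chr6:115943640-115944624, log2 change 1.23, standard error 0.13, adjusted p = 8.1e-07) and at 9150 bp with 119, 119 and 103 against 251, 241 and 265 (log2 change 1.15, adjusted p = 3.5e-06). A peak 9296 bp from Hils1, a spermatid linker-like gene, rose from 424, 449 and 663 to 848, 826 and 1010 (log2 change 0.83, adjusted p = 2.5e-04). None of these 3 peaks covered an annotated gene start. The other peaks of both genes were not called. They lay 10527 bp from H1foo (log2 change -0.02, adjusted p = 0.92) and 2874 bp from Hils1 (log2 change 0.03, adjusted p = 0.91).

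Genes that supply histones to chromatin were described with a list of transcription, mRNA processing, chaperone and exchange factors. The list had 47 peaks of 40 genes, and 1 was called lower and none higher (1 higher and 1 lower at an unadjusted p under 0.05, and neither with plain moderation at an adjusted p under 0.05), with a median log2 change of 0.03. Over all tested peaks 41.9% were called and over promoter peaks 15.7%. The one called was at the start of Ccne2 (chr4:11190465-11192432), for cyclin E2, which with CDK2 activates NPAT at S-phase entry. Its values were 2431, 2401 and 2730 against 2023, 2010 and 2014, with separate groups (log2 change -0.32, standard error 0.10, adjusted p = 0.012). The call was lost with plain moderation (0.062) and without Taf4a sKO replicate 2 or 3 (0.057 and 0.059). Npat, for the coactivator of replication-dependent histone genes, had 3077, 2701 and 3238 against 3288, 2927 and 2988 (adjusted p = 0.83). Slbp, for the protein that binds the histone mRNA stem-loop, had 3316, 2921 and 3700 against 3374, 3063 and 3010 (adjusted p = 0.64). With median-of-ratios, equal-total or quantile scaling Slbp was called lower (log2 change -0.18, -0.22 and -0.18). Casp8ap2, whose product FLASH acts in histone mRNA 3′ end processing, had 2794, 2546 and 3024 against 3167, 2883 and 2889 (adjusted p = 0.47). All 27 chaperone and exchange factor peaks were uncalled. With median-of-ratios scaling 16 of the list's 47 peaks were called lower, and without control replicate 3 7 of them were called higher. Of all promoter peaks 23.2% were called lower with that scaling and 27.6% higher without that library.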

How the data were processed

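Per the labels and the paper's methods, the authors trimmed reads with Trimmomatic 0.39, aligned them to mm10 with STAR 2.7.11b, removed duplicates with Picard 3.1.1 and also spliced, multi-mapping, ribosomal and mitochondrial reads, called peaks with MACS in each sample and counted reads in the unified peaks with featureCounts. A shift for Tn5 insertion is not described. The deposited values are a score per peak and library, read counts that the authors normalized for depth and rounded, so no raw-count test was used. The authors assigned peaks to nearby gene starts. In the table the largest distance is 10938 bp, and 40133 peaks have no gene.

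From these values, limma 3.58.1 (R 4.3.3, mean-variance trend, robust) was run on log2(value + 1) over the 75384 peaks with a mean above 10, with Benjamini-Hochberg adjustment, and fold changes are on that scale. The fit was tested on simulated data, and no outcome of that test is reported or used here. Per-library columns left unused numbered 0. The members and gene lists were chosen with earlier results of these data known. Named are, in each class, up to 6 called and non-overlapping peaks per direction with the smallest p, the 4 highest peaks, the peak nearest each variant start, and in the supply list the called peaks and Npat, Slbp and Casp8ap2. Other genes named were chosen after their values were seen. Alternatives covered scaling, pseudocount, filter, moderation, peak choice, the replicate number and each library left out. Depth before normalization was not used.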

Additional observations from a re-analysis of the deposited data

How the results depend on the processing

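Scaling had the largest effect on the direction of calls. In the order median-of-ratios, equal total and quantile, clustered peaks called higher numbered 3, 2 and 2 (6 in the report) and lower 10, 13 and 13 (1), variant peaks lower 6, 6 and 6 (3), supply peaks lower 16, 22 and 20 (1), and the clustered median was -0.088, -0.124 and -0.138 (0.025). Equal total and quantile scaling left 1 variant peak higher (2). Plain moderation gave 3 clustered and 1 variant peak higher and 0 supply peaks lower. It called 24.8% of all tested peaks higher and 13.5% lower, and 6.52% and 4.62% of promoter peaks. A threshold of 1.5-fold gave 1 gained and 4 lost histone peaks (0 and 1). With the peak nearest each start, 1 variant peak was lower. Other alternatives were added after seeing the data. By gene identity 2 clustered peaks were lower and 5 variant peaks higher. Without genes of the germline list 0 variant peaks were higher, with a median of -0.31.

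Leaving out 1 library at a time, clustered peaks higher ranged from 2 to 10 and lower from 0 to 1, variant peaks higher from 1 to 5 and lower from 1 to 3, supply peaks higher from 0 to 7 and lower from 0 to 2, lost peaks from 0 to 1, and named peaks called from 4 to 12 (10 in the report). Clustered peaks higher were 2 without control replicate 2, 10 without control replicate 3 and 3 without Taf4a sKO replicate 3. In that order this was 3.85%, 19.2% and 5.77% of clustered peaks. The shares called higher were 6.78%, 27.6% and 6.57% of promoter peaks and 21.3%, 37.8% and 23.6% of all tested peaks. The clustered median ranged from -0.02 to 0.10.

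Same-numbered control and Taf4a sKO libraries did not deviate together (correlations 0.11, -0.12 and -0.03). The reporting summary states that controls were littermates, and which libraries share a litter is not given in the sources used here. With so few libraries the correlations cannot decide whether the numbers pair them. With the replicate number as a block, 6 clustered peaks were called higher and 2 lower, and 3 variant peaks higher and 4 lower. That fit called 29.1% of all tested peaks higher and 14.6% lower, and 9.58% and 5.69% of promoter peaks. The H2al3 peak was then called higher (adjusted p = 0.0019, from 0.066).

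No called named peak changed sign, and the distal H2afv peak fell below the filter of a mean above 50. Sign changes occurred at uncalled ones. Leaving out 1 library, Hist2h2ac ranged from -0.105 to 0.0518, the H2afz start from -0.0787 to 0.078 and Hist1h3f from -0.0349 to 0.092. The H2afv start was at -0.0146 with equal totals, and Hist1h3f at -0.0815, -0.117 and -0.106 in the order of scalings above. Npat was at -0.0811, -0.116 and -0.083 and Casp8ap2 at -0.0149, -0.0503 and -0.0209 under these scalings. Leaving out 1 library, Npat ranged from -0.043 to 0.0877 and Slbp from -0.155 to 0.0151. Slbp was called lower under all 3 scalings, and Npat with equal totals. The causes were not tested. Rounded, normalized values give no counting error, and 3 libraries per genotype limit small changes.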

Other observations

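Within the member list, the calls farther than 1000 bp from a start were 4 higher and 2 lower of 22 peaks, where 46.9% of all tested peaks outside the promoter set were called in either direction. Those nearer were 4 higher and 2 lower of 43, where 15.7% of all promoter peaks were called.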
